A study of Rattus norvegicus with 16 samples.

Results

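The circadian clock genes examined here were Arntl, Clock, Per1, Per2, Per3, Cry1, Cry2, Dbp, Nr1d1 and Nr1d2, measured in rat hippocampus on a single-colour gene expression array. The 10 genes were found by taking every probe whose gene name on the array equals one of these symbols, which gave 16 of 30367 probes. A probe was tested if all the arrays of 1 or more groups had it well above background, and 14 of the 16 probes, covering 9 of the 10 genes, were among the 22821 tested probes. All rats were Sprague-Dawley, adult males according to the methods, and each array held the hippocampal RNA of 1 rat. Naive rats (3 arrays) had no anesthesia, surgery, injury or drug, and Sham rats (2 arrays) were anesthetized and prepared for injury but were not injured. TBI rats (3 arrays) received a severe parasagittal fluid percussion injury, and the rats of the drug groups received the same injury followed by PMI (TBI+PMI, 3 arrays) or JM6 (TBI+JM6, 3 arrays) by gavage, or by estradiol injection (TBI+E33, 2 arrays). Tissue was taken 24 h after injury or the equivalent time, and the clock time of collection is not given in the labels. The TBI group had no injected or gavaged vehicle stated in its labels, so handling for drug delivery and the drug cannot be told apart.

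The circadian clock of mammalian cells is a feedback loop. The proteins encoded by Arntl (also called Bmal1) and Clock bind E-box sequences as a pair and switch on the Per and Cry genes, whose proteins then block that pair, and in a second loop the nuclear receptors of Nr1d1 and Nr1d2 (REV-ERB alpha and beta) repress Arntl. Dbp is a direct output of the loop and encodes a D-box binding activator. In most tissues Arntl therefore peaks at the opposite side of the day from Nr1d1, Dbp and the Per genes, and hippocampal Per1 is also a gene that responds quickly to neuronal activity and to glucocorticoids.

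The promoters of the members were searched for elements of the kinds through which the loop acts. A match of letters does not show that an element is used. RefSeq start sites on GRCr8 were found for 9 of the 10 members, with 11 entries, and the 250 bases before each were searched on both strands for the E-box CACGTG, the related E-prime-box CACGTT, the D-box TTATGTAA and the ROR element TAGGTCA, which the REV-ERB receptors also bind. Among 33469 rat promoters of the same length, 5.59% held the E-box, 4.07% the E-prime-box, 0.828% the D-box and 2.26% the ROR element, and no matches overlapped each other in the members. The Arntl promoter at chr1:176766078-176766327, plus strand, held a ROR element whose first base lay 16 bases before the start site. The Per2 promoter at chr9:99496994-99497243, minus strand, held a D-box at 192 bases and an E-prime-box at 62 bases before its start. One of the Nr1d1 entries, at chr10:84229455-84229704, minus strand, held an E-box at 191 bases. Each sequence runs 5′ to 3′ on the strand of its gene, and capitals mark the matched elements.
Arntl: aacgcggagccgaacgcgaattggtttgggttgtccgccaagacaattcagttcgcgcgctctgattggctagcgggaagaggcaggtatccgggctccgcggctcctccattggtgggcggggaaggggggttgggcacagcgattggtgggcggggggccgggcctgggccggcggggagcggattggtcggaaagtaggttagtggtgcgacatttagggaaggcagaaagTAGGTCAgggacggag
Per2: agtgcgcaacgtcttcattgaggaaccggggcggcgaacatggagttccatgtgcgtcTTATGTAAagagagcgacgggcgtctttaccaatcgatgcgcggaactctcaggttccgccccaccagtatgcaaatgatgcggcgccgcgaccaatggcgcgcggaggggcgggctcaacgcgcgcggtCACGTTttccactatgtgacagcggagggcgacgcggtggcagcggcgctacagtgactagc
Nr1d1: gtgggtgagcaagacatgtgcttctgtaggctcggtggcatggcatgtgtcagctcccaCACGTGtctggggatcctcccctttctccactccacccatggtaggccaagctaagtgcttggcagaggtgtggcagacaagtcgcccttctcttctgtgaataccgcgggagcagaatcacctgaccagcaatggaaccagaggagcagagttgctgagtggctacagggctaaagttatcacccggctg
An E-prime-box was also found 212 bases before the Cry2 start and 174 bases before the start of the other Nr1d1 entry, and none of these letters was present in the windows of Clock, Per1, Per3, Dbp or Nr1d2.

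Dbp was measured by 3 probes, whose array annotation places them within a short stretch of the gene on rn4 chromosome 1, and they are used below as repeat measurements of 1 transcript. The exon was not assigned, since an annotation of that build was not used here. The probe at chr1:96178064-96178123 and the probe at chr1:96178148-96178207, plus strand, are printed as the array carries them, with no capitals.
Dbp probe at 96178064: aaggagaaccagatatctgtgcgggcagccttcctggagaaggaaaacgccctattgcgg
Dbp probe at 96178148: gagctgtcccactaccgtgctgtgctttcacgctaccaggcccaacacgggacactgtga
Across the 16 arrays, after subtraction of the group means, the 3 Dbp probes correlated at r = 0.96 to 0.98 with each other, and the pair of Arntl probes at 0.88. The 3 Per3 probes did not track each other, with r from -0.27 to 0.06, and the results for Per3 rest on its brightest probe. Per1, Per2, Cry1, Cry2, Nr1d1 and Nr1d2 had 1 probe each.

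Levels are given as log2 of the intensity relative to the 75th percentile of the probes well above background on the same array, so that 0 is that percentile. Levels of different genes come from different probes and are not compared. Each of the 4 slides carried 4 arrays, and they were scanned in 2 sessions, with Naive, Sham and TBI in session 1 and the drug groups in session 2. Both Sham arrays and Naive 1 and 2 lay on slide 1, and all TBI arrays and Naive 3 on slide 2. Sham and TBI rats thus shared no slide, and injury and slide cannot be told apart in a direct comparison of them. From 16274 to 18239 probes were well above background in session 1 and from 20256 to 24979 in session 2, so drug and session cannot be told apart in any comparison of a drug group with TBI. The comparisons use limma across all probes with Benjamini-Hochberg adjustment, and a gene was called at an adjusted p under 0.05. In bulk tissue, fewer cells of a type and less RNA per cell cannot be told apart. Hippocampal neurons are the defining cells of this tissue, and 6 of the 7 listed neuron markers were on the array and tested. The summed level of the 5 with a value on every array was from 3.48 to 4.82 on the 16 arrays.

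**Figure D1:**
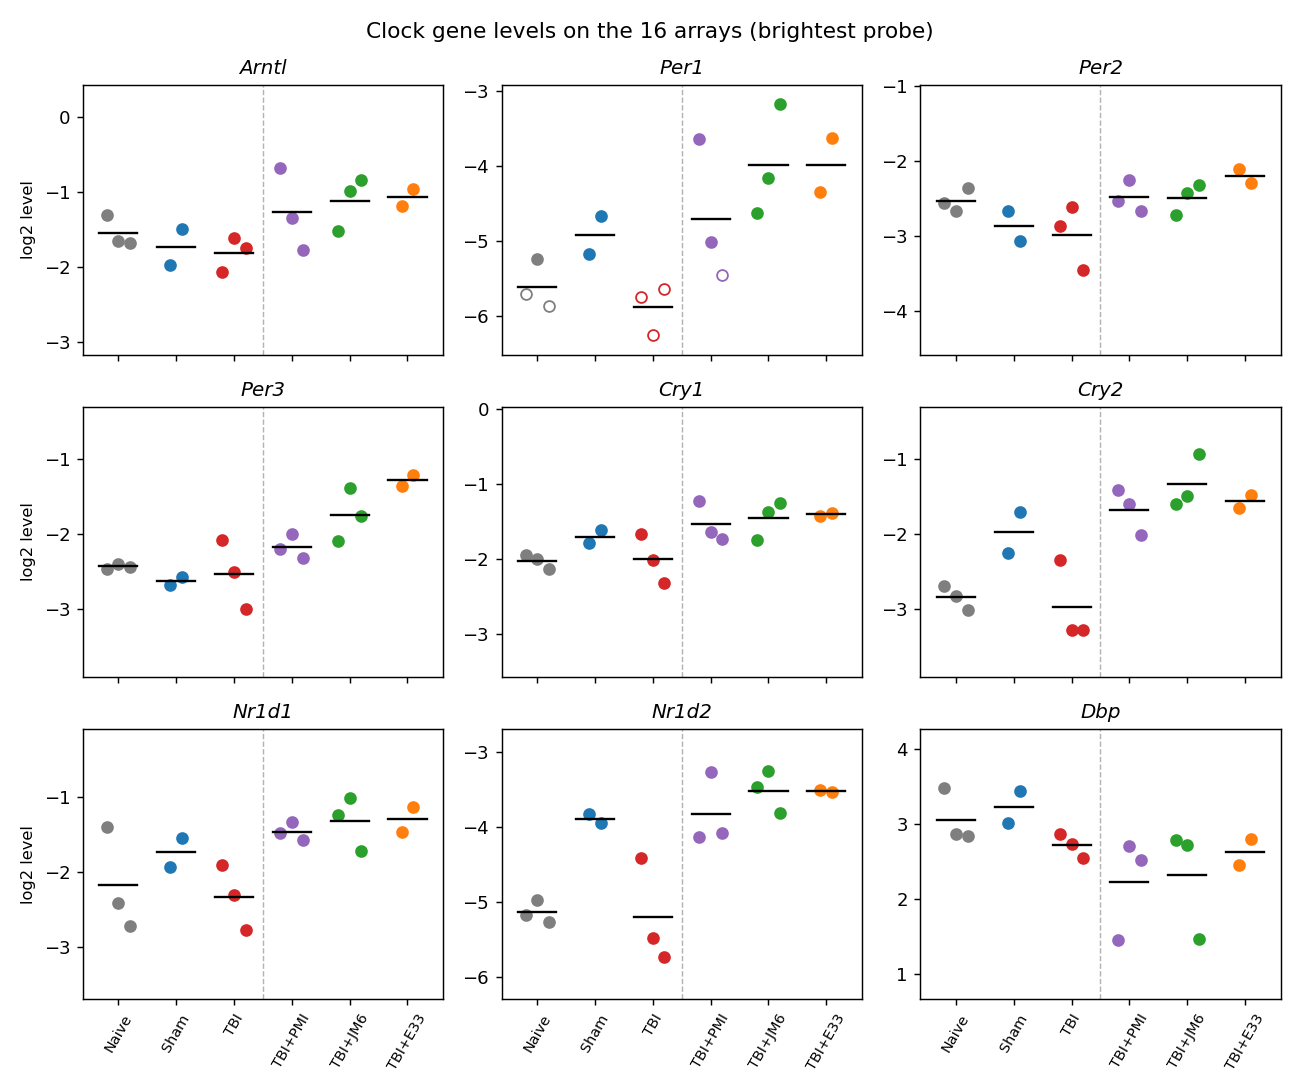
Log2 level (y axis, relative to the 75th percentile of the array) of the 9 tested clock genes by group (x axis), 1 point per array and a bar at the group mean. Open points were not well above background, and the dashed line divides the 2 scanning sessions. Nr1d2 and Cry2 were higher on both Sham arrays than on all Naive and TBI arrays, and Dbp was lowest on TBI+PMI 1 and TBI+JM6 3.

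Arntl, the activator of the loop, lay at -1.30, -1.65 and -1.68 in Naive, -1.97 and -1.50 in Sham and -2.06, -1.62 and -1.75 in TBI rats. The 3 groups overlapped. The log2 difference was -0.07 (SE 0.31, adjusted p = 0.905) in TBI vs. Sham, -0.26 (SE 0.27, adjusted p = 0.650) in TBI vs. Naive and -0.19 (SE 0.31, adjusted p = 0.781) in Sham vs. Naive rats. Clock, which encodes the partner of the Arntl protein, was not tested: of its probes, 1 was well above background on 1 array and the other on 0 arrays.

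The period genes encode the repressors that build up through the active phase of the cycle. Per1 was at -5.71, -5.24 and -5.87 in Naive, -5.17 and -4.67 in Sham and -5.75, -6.26 and -5.63 in TBI rats. Both Sham arrays were above all Naive and TBI arrays, and Per1 was not well above background on any TBI array or on 2 of the 3 Naive arrays. With TBI values under the lowest detectable signal raised to it, the mean of Per1 was 1.83-fold higher in Sham than in TBI rats. This fold takes no account of the spread between arrays. The fitted difference of -0.96 (SE 0.51, adjusted p = 0.252) in TBI vs. Sham did not pass the test. Its 95% interval reached from -2.06 to 0.13, and under a normexp background correction the difference turned to 0.37. Per1 differed by -0.27 (SE 0.45, adjusted p = 0.801) in TBI vs. Naive and by 0.69 (SE 0.51, adjusted p = 0.470) in Sham vs. Naive rats. Per2 lay at -2.56, -2.67 and -2.37 in Naive, -2.67 and -3.07 in Sham and -2.87, -2.62 and -3.46 in TBI rats. Both Sham arrays were below all Naive arrays, by less than 0.01 at the nearest, and the TBI arrays overlapped both groups. Its difference was -0.11 (SE 0.25, adjusted p = 0.805) in TBI vs. Sham, -0.45 (SE 0.22, adjusted p = 0.266) in TBI vs. Naive and -0.34 (SE 0.25, adjusted p = 0.466) in Sham vs. Naive rats. Per3 was at -2.47, -2.39 and -2.43 in Naive, -2.68 and -2.57 in Sham and -2.07, -2.50 and -3.00 in TBI rats, where it spread around both other groups. Per3 differed by 0.10 (SE 0.26, adjusted p = 0.842) in TBI vs. Sham, -0.10 (SE 0.23, adjusted p = 0.873) in TBI vs. Naive and -0.19 (SE 0.26, adjusted p = 0.721) in Sham vs. Naive rats.

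The cryptochromes are the strongest repressors of the activator pair. Cry2 was at -2.70, -2.82 and -3.02 in Naive, -2.25 and -1.71 in Sham and -2.35, -3.28 and -3.29 in TBI rats. Both Sham arrays were higher than all Naive and TBI arrays, TBI 1 lying just under Sham 1. The difference of -0.99 (SE 0.31, adjusted p = 0.0635) in TBI vs. Sham missed the threshold. It passed without TBI 1 (-1.30, adjusted p = 0.00769), but not without TBI 2 (-0.84, adjusted p = 0.188) or TBI 3 (-0.83, adjusted p = 0.191). The difference was -1.26 without Sham 1 and -0.72 without Sham 2, and 4 of 22 alternative settings passed. Cry2 differed by 0.87 (SE 0.31, adjusted p = 0.112) in Sham vs. Naive and by -0.13 (SE 0.28, adjusted p = 0.861) in TBI vs. Naive rats. Cry1 lay at -1.94, -2.00 and -2.14 in Naive, -1.79 and -1.61 in Sham and -1.67, -2.02 and -2.32 in TBI rats. The Sham arrays were above the Naive arrays and overlapped TBI 1. Its difference was -0.30 (SE 0.22, adjusted p = 0.424) in TBI vs. Sham, 0.02 (SE 0.20, adjusted p = 0.965) in TBI vs. Naive and 0.33 (SE 0.22, adjusted p = 0.435) in Sham vs. Naive rats.

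Nr1d2, which encodes the repressor REV-ERB beta, was the only member called in these 3 comparisons. It was at -5.17, -4.97 and -5.27 in Naive, -3.82 and -3.95 in Sham and -4.41, -5.47 and -5.73 in TBI rats. Both Sham arrays were above all the others of the session, and TBI 1 lay between them and the remaining TBI arrays. Nr1d2 fell by 1.32 on the log2 scale in TBI vs. Sham (2.50-fold, SE 0.35, adjusted p = 0.0364) and was higher by 1.25 in Sham vs. Naive rats (2.38-fold, SE 0.35, adjusted p = 0.0469), while TBI and Naive rats differed by -0.07 (SE 0.32, adjusted p = 0.940). Within slide 1, which held both Sham arrays and Naive 1 and 2, the Sham rats were 1.19 higher, and within slide 2 the TBI rats were 0.06 above Naive 3. The calls are fragile. All 22 alternative settings kept the direction in both comparisons, but 7 of them kept the call in TBI vs. Sham and 4 in Sham vs. Naive. In TBI vs. Sham the adjusted p was 0.157 without Sham 1, 0.128 without Sham 2, 0.113 without TBI 2 and 0.127 without TBI 3, and in Sham vs. Naive it rose to between 0.0681 and 0.186 when any single array of the 2 groups was left out. With the replicate number as a block the adjusted p was 0.0592 and 0.0766. The Nr1d2 probe was also dim, with deposited intensities from 29 to 196, and under the normexp background correction the TBI vs. Sham difference shrank to -0.17.

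Nr1d1, the REV-ERB alpha gene, was at -1.40, -2.42 and -2.73 in Naive, -1.93 and -1.55 in Sham and -1.91, -2.31 and -2.78 in TBI rats. Naive 1 stood above the other Naive rats by more than the range of the Sham arrays, and all groups overlapped. The difference was -0.59 (SE 0.36, adjusted p = 0.326) in TBI vs. Sham, -0.15 (SE 0.32, adjusted p = 0.857) in TBI vs. Naive and 0.44 (SE 0.36, adjusted p = 0.530) in Sham vs. Naive rats. Dbp, the output gene, was at 3.48, 2.86 and 2.83 in Naive, 3.02 and 3.45 in Sham and 2.87, 2.73 and 2.54 in TBI rats. All TBI arrays were below both Sham arrays, and the TBI and Naive arrays overlapped. Dbp differed by -0.52 (SE 0.42, adjusted p = 0.470) in TBI vs. Sham, -0.34 (SE 0.38, adjusted p = 0.670) in TBI vs. Naive and 0.17 (SE 0.42, adjusted p = 0.862) in Sham vs. Naive rats.

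**Figure D2:**
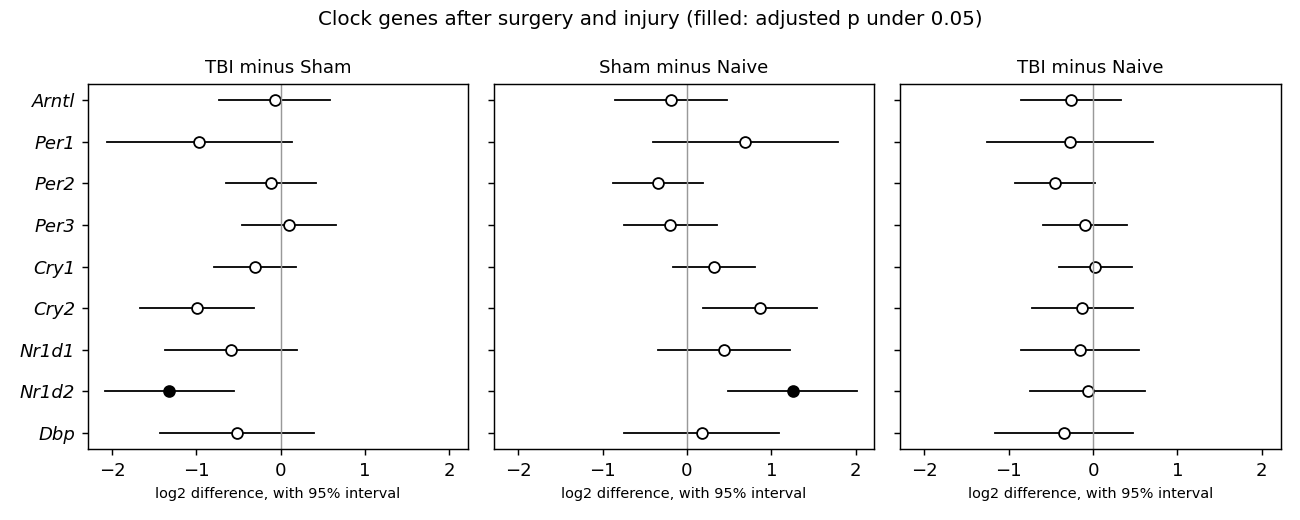
Log2 difference (x axis, point with its 95% interval from limma) of the 9 tested clock genes (y axis) in TBI minus Sham, Sham minus Naive and TBI minus Naive. Filled points passed an adjusted p of 0.05, which Nr1d2 did at -1.32 in TBI vs. Sham and at 1.25 in Sham vs. Naive.

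In TBI vs. Sham, 8 of the 9 tested members had a negative difference with a median of -0.52, beside -0.03 over all tested probes, and 1 of 9 was called where 9.38% of all probes were. The Sham and TBI arrays did not overlap for 4 members (Per1, Cry2, Nr1d2 and Dbp). The share of all probes without overlap was not computed, so the counts of overlap in this paragraph are not a result about the members. In Sham vs. Naive, 6 of 9 were positive with a median of 0.33, beside 0.06 over all probes, 6 did not overlap and 1 was called, where 8.07% of all probes were. In TBI vs. Naive, the median was -0.15 beside 0.04, every member overlapped, and limma called 0 of 9 members where 4.71% of all probes were called, with 0 members also at an unadjusted p under 0.05. The comparisons share the Sham, Naive or TBI arrays, so a high level in the 2 Sham rats enters both comparisons that hold them. Neuron markers moved with Nr1d2 and Cry2: the summed level of the 5 with a value on every array was 3.74 to 3.83 in Naive, 4.36 to 4.44 in Sham and 3.48 to 4.06 in TBI rats, 2 of the 6 tested markers were called higher in Sham than in Naive and 2 lower in TBI than in Sham, and none was called in TBI vs. Naive rats. Of the 6 oligodendrocyte markers, 3 were called lower in TBI than in Sham rats (summed level 5.76 to 6.77 against 6.78 to 6.85). Their summed level in Naive rats, 6.36 to 6.86, overlapped both. Of the 6 microglia markers, P2ry12 (-1.41, adjusted p = 0.0130) and Tmem119 (-2.17, adjusted p = 0.00930) were called lower and Itgam (1.40, adjusted p = 0.0149) higher in TBI than in Sham rats, and P2ry12 was called higher in Sham than in Naive rats (1.05, adjusted p = 0.0373). Both P2ry12 and Tmem119 were higher on the Sham arrays than on all Naive and TBI arrays, as Nr1d2 was, while the summed microglia markers lay at 2.34 to 2.48 in Naive, 2.50 to 3.12 in Sham and 2.79 to 3.18 in TBI rats. The summed leukocyte markers (5 of 6 listed were tested and 4 had a value on every array) were at -3.23 to -2.95 in Naive, -1.82 to -1.32 in Sham and -0.94 to 1.16 in TBI rats, an order that Nr1d2 did not follow. The summed level of the immediate early genes, described below, was likewise higher in Sham rats (2.10 to 2.20) than on all Naive and TBI arrays. That of the markers of hippocampal fields (2.95 to 3.12 in Sham rats) was too, although their mean log2 level overlapped between Sham and Naive rats. The summed choroid plexus markers were at 6.92 on Sham 1 and 6.26 on Naive 2, against 2.29 on Sham 2. The part of these cell types and gene lists in the clock gene differences was not tested.

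Nearly all members were higher in the drug groups than in TBI rats, as were most probes of the array. In TBI+PMI vs. TBI, 4 of 9 members were called, all higher, where 56.7% of all probes were called. In TBI+JM6 vs. TBI, 7 of 9 were called higher where 70.1% were, and in TBI+E33 vs. TBI, 8 of 9 where 70.3% were. The median member difference was 0.54, 0.78 and 1.03 in these comparisons and the median over all probes 0.79, 0.99 and 1.08, so the members as a list shifted no more than the array did. The 3 comparisons share the TBI arrays. Under quantile normalization, which removes the shift of the median, 0, 2 and 0 members were called, counted in either direction. Values are therefore also given below relative to the median of all probes. That median takes no account of probe brightness. The bright Dbp probes lay below it and the dim Per1 and Nr1d2 probes above it in each drug group. For Arntl the brightest probe lay below it and the dimmer probe above it. The dimmest Per3 probe, however, lay below it in TBI+JM6 and TBI+E33. Whether the shift of the array varied with brightness was not tested, and a shared median would not remove such a trend.

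Per1 was the member furthest above that median in TBI+JM6 and TBI+E33. It was at -3.64, -5.01 and -5.45 in TBI+PMI, -4.62, -4.16 and -3.18 in TBI+JM6 and -4.34 and -3.62 in TBI+E33 rats, and only TBI+PMI 3 was not well above background. Every TBI+JM6 and TBI+E33 array was above every array of session 1. With TBI values raised to the lowest detectable signal as above, Per1 was 2.13-fold higher in TBI+PMI, 3.50-fold in TBI+JM6 and 3.50-fold in TBI+E33 rats. The limma fit gave an adjusted p of 0.0407, 0.00271 and 0.00538. The fitted differences of 1.18, 1.90 and 1.90 lay 0.39, 0.90 and 0.82 above the median of all probes. In TBI+PMI the call was lost on leaving out any of the 3 TBI arrays, TBI+PMI 1 or TBI+PMI 2, and the difference fell to 0.65 without TBI+PMI 1. In TBI+E33 it was lost without TBI+E33 2 (adjusted p = 0.0656).

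Cry2 and Nr1d2 were the other members above the median of all probes in each drug group. Cry2 was at -1.42, -1.61 and -2.01 in TBI+PMI, -1.60, -1.49 and -0.93 in TBI+JM6 and -1.65 and -1.48 in TBI+E33 rats. All of these arrays were above the TBI arrays, and TBI+PMI 3 lay between the Sham arrays. Cry2 was higher than in TBI rats by 1.29 (SE 0.28, adjusted p = 0.00191), 1.63 (SE 0.28, adjusted p = 0.000280) and 1.41 (SE 0.31, adjusted p = 0.00173), which is 0.51, 0.64 and 0.33 above the median. Nr1d2 was at -4.13, -3.27 and -4.08 in TBI+PMI, -3.47, -3.25 and -3.82 in TBI+JM6 and -3.50 and -3.53 in TBI+E33 rats. It was higher than in TBI rats by 1.38 (SE 0.32, adjusted p = 0.00279), 1.69 (SE 0.32, adjusted p = 0.000518) and 1.69 (SE 0.35, adjusted p = 0.00120), and lay 0.59, 0.70 and 0.61 above the median. Leaving out any single array of the compared groups kept both genes called in all 3 comparisons. Under quantile normalization the adjusted p of Cry2 passed in TBI+JM6 vs. TBI alone and that of Nr1d2 in none.

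By their brightest probes, the other members moved with or below the array. Nr1d1 lay at -1.48, -1.33 and -1.58 in TBI+PMI, -1.24, -1.02 and -1.72 in TBI+JM6 and -1.47 and -1.13 in TBI+E33 rats, all above the TBI arrays. Nr1d1 was called in each drug group, with differences of 0.87 (adjusted p = 0.0361), 1.01 (adjusted p = 0.0146) and 1.03 (adjusted p = 0.0221) that lay 0.08, 0.01 and -0.04 from the median. Arntl, at -0.68, -1.35 and -1.77 in TBI+PMI, -1.52, -0.99 and -0.85 in TBI+JM6 and -1.19 and -0.95 in TBI+E33 rats, overlapped the TBI arrays in TBI+PMI alone. Arntl was called in TBI+JM6 at 0.69 (adjusted p = 0.0390) and in TBI+E33 at 0.74 (adjusted p = 0.0463), which lay -0.31 and -0.34 from the median of all probes. The other Arntl probe, dimmer but above background on all 16 arrays, gave larger differences of 1.28 (adjusted p = 0.00158), 1.32 (adjusted p = 0.000919) and 1.57 (adjusted p = 0.000668), with no overlap with TBI in any drug group, and lay 0.49, 0.33 and 0.49 above the median. The side of the median on which Arntl fell thus turned on the probe. Cry1 was at -1.23, -1.64 and -1.73 in TBI+PMI, -1.75, -1.38 and -1.25 in TBI+JM6 and -1.43 and -1.38 in TBI+E33 rats, with only the TBI+E33 arrays all above TBI 1. It was called in TBI+JM6 at 0.54 (adjusted p = 0.0280) and in TBI+E33 at 0.60 (adjusted p = 0.0303). Per2 was at -2.53, -2.25 and -2.67 in TBI+PMI, -2.71, -2.43 and -2.32 in TBI+JM6 and -2.11 and -2.29 in TBI+E33 rats, and was called in TBI+E33 at 0.78 (adjusted p = 0.0135), where no array overlapped the TBI rats. Per3, at -2.19, -2.00 and -2.32 in TBI+PMI, -2.09, -1.38 and -1.76 in TBI+JM6 and -1.35 and -1.21 in TBI+E33 rats, was likewise clear of the TBI arrays in TBI+E33 alone. It was called in TBI+JM6 at 0.78 (adjusted p = 0.00872) and in TBI+E33 at 1.25 (adjusted p = 0.00105). A dimmer Per3 probe was called in all 3 drug groups at 1.62, 1.25 and 1.49, which is 0.83, 0.26 and 0.42 above the median, and the remaining Per3 probe in none. Of the brightest-probe values for Arntl, Cry1, Per2 and Per3, that of Per3 in TBI+E33 was the only called one above the median of its comparison, by 0.17. Left out in turn, each TBI, TBI+PMI and TBI+E33 array, and TBI+JM6 2 and TBI+JM6 3, ended at least 1 call among Arntl, Cry1, Per2 and Nr1d1, and those of Per3 held. After quantile normalization several of these called members turned below the TBI level: Arntl (-0.14), Per3 (-0.15) and Cry1 (-0.33) in TBI+JM6 rats, and Arntl (-0.14), Per2 (-0.33) and Cry1 (-0.33), with Per1 and Nr1d2 at -0.04, in TBI+E33 rats. In TBI+PMI rats Per1 was then at -0.33. Per2 and Dbp had not been called in TBI+JM6 vs. TBI. After quantile normalization the Per2 levels were -3.16, -2.98 and -3.07 in TBI+JM6 against -2.44, -2.28 and -2.85 in TBI rats. Those of Dbp were 2.64, 2.49 and 0.93 against 3.20, 2.77 and 2.82. Without quantile normalization, Dbp by its brightest probe was the only member below the TBI level in each drug group. Its uncalled differences were -0.49 (SE 0.38, adjusted p = 0.277), -0.39 (SE 0.38, adjusted p = 0.361) and -0.09 (SE 0.42, adjusted p = 0.856). These put Dbp at -1.28, -1.38 and -1.16 from the median of all probes. The other Dbp probes differed from TBI by -0.06 and -0.14 in TBI+PMI, 0.01 and -0.01 in TBI+JM6 and 0.39 and 0.34 in TBI+E33 rats, so the direction turned with the probe in TBI+E33. All 3 probes lay below the median of all probes in each drug group, by -0.68 at the least.

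**Figure D3:**
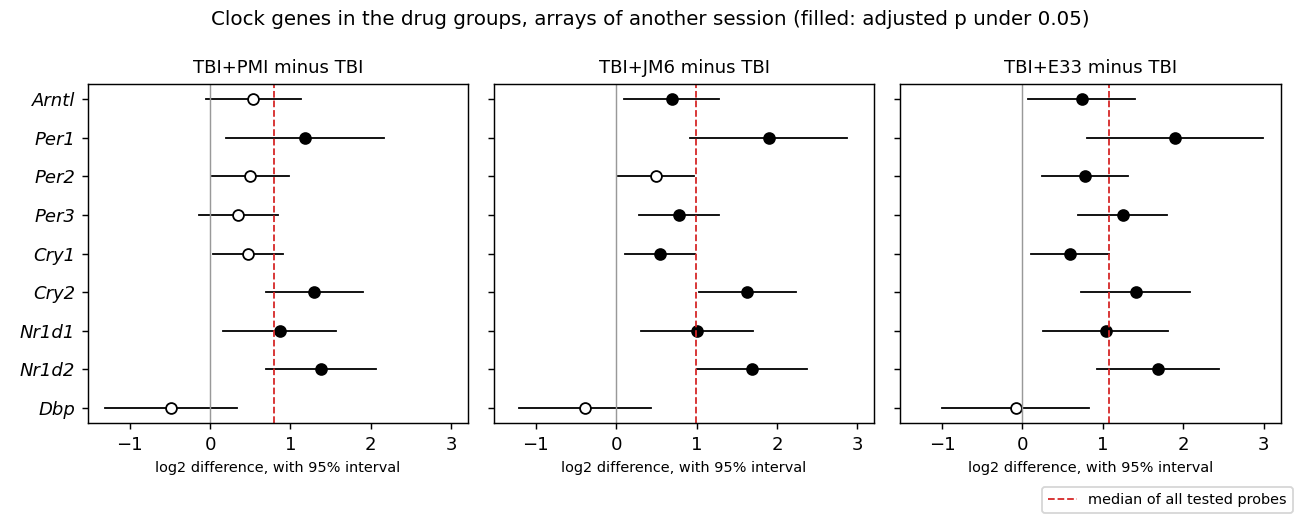
Log2 difference (x axis, point with its 95% interval from limma) of the 9 tested clock genes (y axis) in each drug group minus TBI, which were scanned in different sessions. Filled points passed an adjusted p of 0.05, and the dashed red line is the median of all tested probes (0.79, 0.99 and 1.08). Dbp, by its brightest probe, lies below 0 in all 3 panels.

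Between the drug groups, which shared a session, limma called 0 members in each comparison. Calls over all probes were also few, at 0.0131% in TBI+JM6 vs. TBI+PMI, 0.0175% in TBI+JM6 vs. TBI+E33 and 0.11% in TBI+PMI vs. TBI+E33. At an unadjusted p under 0.05 there were 0, 0 and 1 members, the last being Per3. The TBI+PMI and TBI+E33 arrays did not overlap for Per3 (difference -0.89, SE 0.26, 95% interval -1.45 to -0.34, adjusted p = 0.156). All TBI+PMI arrays lay on slide 3 and both TBI+E33 arrays on slide 4, so drug and slide cannot be told apart between them. For the remaining members the intervals of the 3 differences reached from -1.81 at the lowest (Per1) to 1.70 at the highest (Per1). The doses differed between the compounds, so the responses are given side by side and no comparison between structures was made.

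The levels of Dbp in the drug groups were set apart by 2 arrays. Dbp was at 1.45, 2.71 and 2.53 in TBI+PMI, 2.79, 2.72 and 1.47 in TBI+JM6 and 2.46 and 2.80 in TBI+E33 rats. TBI+PMI 1 and TBI+JM6 3 were well below every other array of the series, and the other 6 arrays of the session lay between 2.46 and 2.80. The probe at 96178148 gave 0.75 and 0.78 on these arrays against 1.84 to 2.13 on the other 6 arrays of the session. With both arrays left out, a choice made after seeing the data, the difference from TBI was -0.10 in TBI+PMI and 0.04 in TBI+JM6 rats. Arntl was highest of all 16 arrays on the same arrays, at -0.68 and -0.85 (by its other probe TBI+PMI 1 was highest and TBI+JM6 3 was not set apart), and so was Cry1, at -1.23 and -1.25. Per1 was at -3.64 and -3.18 there, with TBI+E33 2 at -3.62 beside them. Arntl minus Dbp was -2.13 on TBI+PMI 1 and -2.32 on TBI+JM6 3, against -4.31 to -3.65 on the rest of the session and -4.99 to -4.29 in session 1.

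Counted after seeing these arrays, 4 of the 9 members lay on both of them above (Arntl, Cry1 and Cry2) or below (Dbp) the rest of the session, as did 5 of the 19 other tested clock genes and 11.9% of all tested probes. The 5 were Nfil3, Bhlhe40, Btrc and Ccrn4l above and Tef below, and the other 14 did not stand apart. Tef, a relative of Dbp that binds the same D-box, was at 0.97 and 1.17 on TBI+PMI 1 and TBI+JM6 3 against 1.46 to 1.93 on the other arrays of session 2, although TBI 1 was as low, at 1.06. Nfil3, the repressor that competes for the D-box, was at 0.00 and 1.12 against -2.22 to -1.35. Bhlhe40, a repressor that acts on E-boxes, was at 0.55 and 0.39 against -1.30 to -0.23, and Ccrn4l, which encodes the rhythmic protein nocturnin, at 0.35 and 1.03 against -0.62 to -0.09. On these arrays the immediate early genes, which neuronal activity induces within minutes, were also high. The mean level of 9 tested genes of that list (of 11 listed) was 0.44 on TBI+PMI 1 and 2.18 on TBI+JM6 3, against -2.68 to -1.75 on the other arrays of session 2 and -3.61 to -2.42 in session 1. Their summed level was 4.72 and 6.13 on these arrays against 1.28 to 2.12 on the rest of the session. Fos was at 0.76 and 3.03 against -2.60 to -1.52, and Arc at 3.05 and 4.57 against -0.79 to 0.27. The mean of 12 tested glucocorticoid-responsive genes (of 14 listed) was 2.13 and 1.85 against 0.65 to 1.57. Within session 2, choroid plexus markers (4 of 6 listed were tested) were high on TBI+PMI 1 alone, with a mean level of 1.91. Their mean level was -4.10 on TBI+JM6 3 and -4.73 to -2.44 on the rest of the session. The red blood cell markers too were highest of the session on TBI+PMI 1. The part of neuronal activity, of glucocorticoids or of other tissue in the low Dbp and high Arntl, Nfil3 and Per1 of these arrays was not tested, and the labels give nothing that sets these rats apart from their groups.

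**Figure D4:**
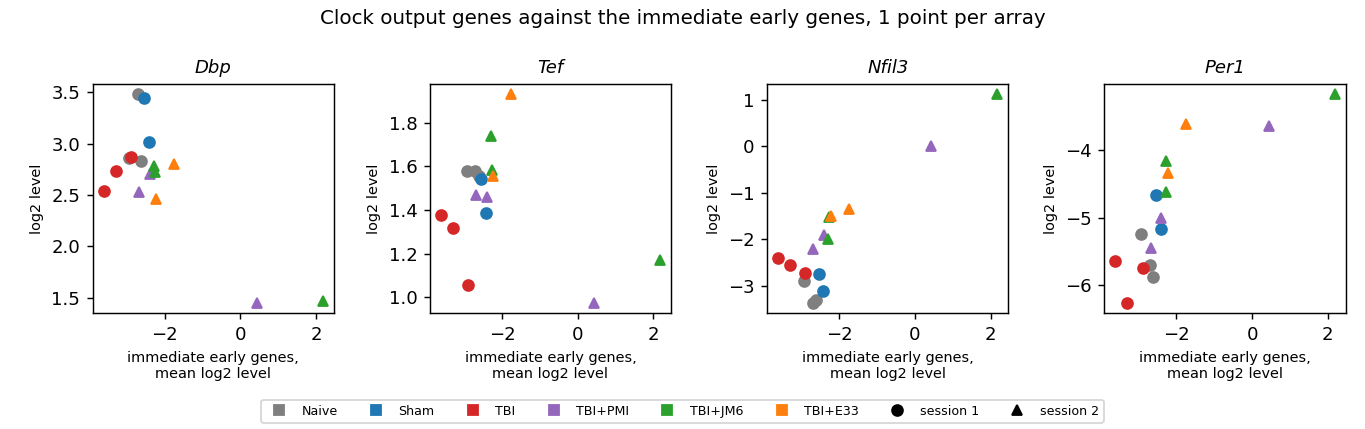
Log2 level (y axis) of Dbp, Tef, Nfil3 and Per1 against the mean log2 level of 9 immediate early genes (x axis), 1 point per array, coloured by group, with circles for session 1 and triangles for session 2. TBI+PMI 1 (0.44 on the x axis) and TBI+JM6 3 (2.18) stand apart, with Dbp at 1.45 and 1.47 and Nfil3 at 0.00 and 1.12.

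The phase relation between Arntl and its output genes was examined across arrays, within each session, since the sessions formed separate clusters, and over deviations from the group means. A clock read at different hours on different rats would give negative correlations of Arntl with Per1, Per2, Per3, Dbp, Nr1d1 and Nr1d2. The 18 relations were tested with exact two-sided permutations of the arrays, with Benjamini-Hochberg adjustment over all 18, and the smallest p attainable was 2.48e-05 within a session (n = 8) and 0.000193 within groups (n = 16). In each of the 3 sets, 2 of the 6 correlations were negative. That count turned on the scaling: after quantile normalization 1 was negative in session 1, 4 in session 2 and 4 within groups. In session 1 they ranged from -0.34 (Nr1d2) to 0.55 (Dbp), with adjusted exact permutation p from 0.693 to 0.931. Nr1d2 and Per3 were the negative ones. Over all tested probes of that session, 43.4% correlated negatively with Arntl, with a median r of 0.07.

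In session 2 the relation of Arntl with Per1 was the only one that passed, and it was positive. Its r was 0.91 (exact permutation p = 0.00228, adjusted p = 0.0411) and its Spearman rho 0.90 (exact permutation p = 0.00456, adjusted p = 0.0821), with n = 8. Without TBI+PMI 3 and TBI+JM6 1, the arrays farthest from the median of Arntl, r was 0.87. The r stayed positive under all 17 alternatives (0.71 to 0.93), but it passed in 2 of them. The median r of all tested probes with Arntl was 0.45 in that session, and 15.0% of the probes were negative. Within groups, Arntl and Per1 had r = 0.75 (exact permutation p = 0.0355, adjusted p = 0.319, n = 16) and rho = 0.64 (adjusted exact permutation p = 0.396), and in session 1 r was 0.04. Arntl and Per1 were thus called in 1 of the 3 sets, and a test of the difference between the sessions was not run.

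Dbp was the output gene with the most negative relation to Arntl in session 2, at r = -0.60 (exact permutation p = 0.115, adjusted p = 0.688, n = 8) and rho = -0.40 (adjusted exact permutation p = 0.806). Within groups r was -0.45 (adjusted exact permutation p = 0.746, n = 16). Neither passed, and both rested on TBI+PMI 1 and TBI+JM6 3: without these arrays r turned to 0.35 in session 2 and 0.51 within groups. Nr1d2 had r = -0.08 and Nr1d1 r = 0.04 in session 2, Per2 0.41 and Per3 0.43. Without TBI+PMI 3 and TBI+JM6 1, the arrays of lowest Arntl in that session, r was -0.82 for Nr1d2, -0.76 for Per2 and -0.71 for Dbp over the remaining 6 arrays. With TBI+PMI 1 and TBI+JM6 3 left out instead, 0 of the 6 correlations were negative in session 2. Arntl minus the mean of the 6 output genes ranged from 0.822 to 0.999 in Naive, 0.24 to 0.56 in Sham and 0.29 to 1.26 in TBI rats. It was 1.41, 0.51 and 0.49 in TBI+PMI, 0.37, 0.60 and 1.04 in TBI+JM6 and 0.53 and 0.54 in TBI+E33 rats, highest of its group on TBI+PMI 1 and TBI+JM6 3.

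**Figure D5:**
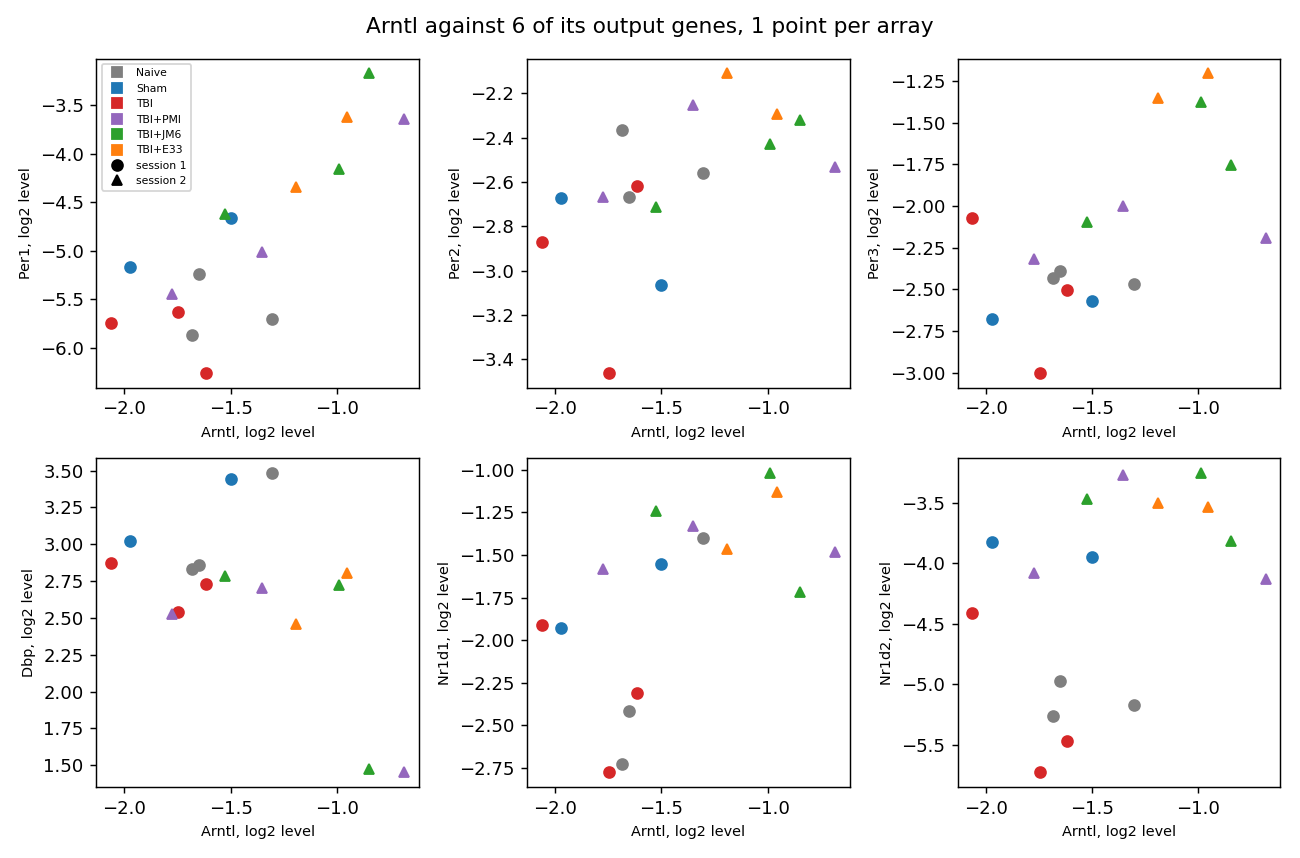
Log2 level of 6 output genes (y axis of each panel) against that of Arntl (x axis), 1 point per array, coloured by group, with circles for session 1 and triangles for session 2. In session 2 Per1 rises with Arntl (r = 0.91), and Dbp is low on the 2 arrays of highest Arntl.

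The members were also set against each other, as a description over arrays that share slides and scanning. Of 36 pairs, 29 had a positive r in session 1, 24 in session 2 and 27 within groups. The highest in session 1 were Cry2 with Nr1d2 at 0.93, Cry1 with Cry2 at 0.90 and Dbp with Nr1d1 at 0.90. In session 2 Arntl went with Cry1 at 0.96, and within groups (16 arrays) Cry1 with Cry2 at 0.84, Per3 with Nr1d2 at 0.73, Dbp with Nr1d1 at 0.63 and Per1 with Dbp at -0.69. Among 10220 named probes above background on every array, after subtraction of each session's mean, the levels most like Arntl over the 16 arrays were those of Dgat1 (r = 0.89), Cbr3 (0.89), Pdrg1 (0.88), Gcc2 (0.88) and Rgs4 (0.87). Those most like Dbp were Pik3ip1 (0.93), B3galt4 (0.92), Akap7 (0.91), Wnt7a (0.89) and Acss1 (0.88).

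Of 23 further clock pathway genes, 20 were on the array and 19 were tested. In TBI vs. Sham 0 of the 19 were called higher and 2 lower, in TBI vs. Naive 1 and 0, and in Sham vs. Naive 3 and 1, with median differences of -0.01, 0.01 and 0.04. Hlf, a D-box activator like Dbp, was well above background on both Sham arrays and on none of the Naive or TBI arrays. With low values raised as for Per1, it was 1.57-fold higher in Sham than in TBI and 1.66-fold higher than in Naive rats. The limma fit gave an adjusted p of 0.0477 and 0.0193. Bhlhe41, a repressor of the activator pair, followed the same pattern. It was 1.64-fold higher in Sham than in TBI (adjusted p = 0.0294) and 1.78-fold higher than in Naive rats (adjusted p = 0.00183). It was called higher in TBI than in Naive rats as well (adjusted p = 0.0104), where neither group was above background on any array. Rora, an activator at the ROR element of Arntl, was called lower in Sham than in Naive rats (adjusted p = 0.0314), but was below background on every array of both groups. Timeless was well above background on 1 TBI array and on neither Sham array, and was not called in TBI vs. Sham (adjusted p = 0.0535). Its mean levels of -6.15 in TBI and -7.65 in Sham rats rest on undetected values in both groups, so no fold is given. Against TBI, 8 of the 19 were called higher in TBI+PMI, 15 in TBI+JM6 and 12 in TBI+E33 rats and 0 lower, where 56.7%, 70.1% and 70.3% of all probes were called in either direction, with medians of 0.66, 1.01 and 1.09 beside 0.79, 0.99 and 1.08 over all probes. The kinase genes Csnk1d, Csnk1e, Gsk3b and Prkaa1, whose products phosphorylate clock proteins, were called in all 3 of these comparisons, in which most probes of the array were called as well. Between the drug groups 0 of the 19 were called.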

How the data were processed

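Hippocampal RNA of 16 rats was measured on single-colour rat arrays of 60-base probes, 1 array per rat, with the groups taken from the labels. The design gives 3 rats per group, and 2 Sham and 2 TBI+E33 arrays were analysed here. RNA was amplified with either of 2 kits, and which rat had which is not stated. The deposited intensity of each spot was background subtracted and detrended by Agilent Feature Extraction 9.5.3.1, per the file headers, and not normalized between arrays. The values deposited by the authors are on a linear scale, a ratio that, according to the methods, takes each array's 75th percentile as reference. They have the same distribution on all 16 arrays (median 0.14, from 0.02 to 352.62), which division by 1 percentile does not give, so this alternative is close to quantile normalization.

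Intensities (42877 non-control spots per array) were averaged over the spots of a probe, divided by the 75th percentile of the array's probes well above background and taken to log2. The 22821 probes that all the arrays of 1 or more groups had well above background were fitted together in limma (16 arrays, 10 residual degrees of freedom), and an adjusted p under 0.05 (Benjamini-Hochberg) made a call. A gene is represented by its brightest tested probe. Where a group had no array above background, its values under the lowest signal well above background on their array were raised to that signal. The fold then comes from the difference of the mean log2 levels and takes no account of the spread between arrays. The number of arrays limits the precision, and nothing beyond the labels states how the rats were assigned, so p-values measure the spread between these arrays. R 4.3.3, limma 3.58.1, the package data.table (1.17.8), Python 3.11.15 and matplotlib 3.10.9 were used, and the scripts were tested on simulated data.

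All 10 members are named. Further clock genes are named if called in at least 3 of the 9 comparisons or among the 3 largest differences in TBI vs. Sham, Tef, Bhlhe40, Btrc, Ccrn4l and Nfil3 were named after their values were seen, and the genes most like Arntl and Dbp are the 5 of highest r. A result for 1 further clock gene is not reported here. The members, lists and rules were chosen with earlier results of these data known. The alternatives were another scaling (quantile, 75th percentile over all probes, E1A spike-in spots, the authors' table), normexp background correction with an offset of 50, removal of a GC trend, other filters, the methods' t-test, other samples in the fit, the slide or replicate number as a block, the mean of a gene's probes, Spearman's rho and leaving out each array. Leaving out TBI+PMI 1 with TBI+JM6 3, and fitting session 1 alone, were chosen after seeing the data. Whether replicate numbers pair the rats is not known, and the correlations of same-numbered arrays are given with the alternatives.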

Additional observations from a re-analysis of the deposited data

How the results depend on the processing

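The scaling, the dimness of Per1 and Nr1d2 and the number of arrays limit these results, and the cause of each change below was not tested. Nr1d2 lower in TBI than in Sham rats and higher in Sham than in Naive rats, and Cry2 in the same directions, kept their direction under all 22 alternatives (Nr1d2 -1.72 to -0.17 and 0.60 to 1.33, Cry2 -1.30 to -0.51 and 0.60 to 1.13). The count of members called in TBI vs. Sham (1) became 0 under quantile normalization, E1A scaling, normexp, the authors' table, no filter, the methods' t-test before and after adjustment, the 2 groups alone, the slide as a fixed block and session 1 alone, 2 (Cry2 and Nr1d2) under the all-probe 75th percentile, the filter on all 16 arrays and the slide as a random block, and 0 to 2 when each array was left out. In Sham vs. Naive (1) it became 0 under quantile normalization, the all-probe 75th percentile, E1A scaling, normexp, the GC correction, the authors' table, no filter, the adjusted t-test, the 2 groups alone, the slide as a fixed block, without both TBI+PMI 1 and TBI+JM6 3, in session 1 alone and without any single array, and 3 (Cry1, Cry2 and Nr1d2) by the methods' t-test. With the replicate number as a block the count was 0 in both. Same-numbered arrays correlated at -0.19 to 0.18, with 3 of 22 pairs over 0.1, which does not settle whether these rats were handled together. The block left 3 called members in TBI+PMI vs. TBI, 6 in TBI+JM6 vs. TBI and 6 in TBI+E33 vs. TBI. In TBI+PMI vs. TBI (4) the count was 0 under quantile normalization, the all-probe 75th percentile, normexp, the authors' table and the adjusted t-test, 1 under E1A scaling, 2 without both arrays, and 2 to 5 without single arrays. In TBI+JM6 vs. TBI (7) it was 2, 4, 3, 2, 3 and 1 under quantile normalization, the all-probe 75th percentile, E1A scaling, normexp, the GC correction and the authors' table, 3 by the adjusted t-test and 4 to 8 without single arrays. In TBI+E33 vs. TBI (8) it was 0, 0, 1, 0, 2 and 0 under the same settings, 5 by the methods' t-test and 1 after its adjustment, and 4 to 7 without single arrays. All of these counts take either direction. The t-test called 1 member (Per3) in TBI+PMI vs. TBI+E33, and 0 was kept in TBI vs. Naive and the other drug pairs throughout. Over all probes the calls ranged from 1 to 4073 in TBI vs. Sham (2138 as reported), 1 to 3169 in TBI vs. Naive (1075), 0 to 3641 in Sham vs. Naive (1838), 1441 to 14371 in TBI+PMI vs. TBI (12945), 4906 to 17551 in TBI+JM6 vs. TBI (15998), 3205 to 17967 in TBI+E33 vs. TBI (16047), 0 to 1554 in TBI+JM6 vs. TBI+PMI (3), 0 to 618 in TBI+JM6 vs. TBI+E33 (4) and 0 to 3408 in TBI+PMI vs. TBI+E33 (25).

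Of the 6 Arntl correlations, those negative (2 in each set) numbered 1 under quantile normalization, 4 under E1A scaling, 0 under normexp 1 with the mean of probes and 3 in the authors' table in session 1, and 2 to 4 without single arrays. In session 2 they numbered 4 under quantile normalization, 4 under the all-probe 75th percentile, 1 under normexp, 5 under the GC correction, 4 in the authors' table, 0 without TBI+PMI 1 and TBI+JM6 3 and 1 to 3 without single arrays, and within groups 4, 4, 1, 4, 4, 1 and 2 to 4. They also numbered 3 in session 2 with the mean of probes and by Spearman's rho, and 3 within groups under E1A scaling. In session 1 the r of Arntl with Per1 turned to -0.028 under E1A scaling and -0.039 in the authors' table and was -0.28 to 0.22 without single arrays, and that with Dbp turned to -0.42 under E1A scaling. Without both arrays the r with Dbp turned to 0.35 in session 2 and 0.51 within groups. The r of Arntl with Per1 in session 2 was 0.71 to 0.93 under 17 alternatives and passed in 2 of them.

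Differences that had not been called turned as follows. In TBI vs. Sham, Arntl was 0.0061 under quantile normalization, 0.21 under E1A scaling, 0.038 in the authors' table, 0.13 with the slide as a fixed block and -0.31 to 0.16 without single arrays. Per2 was 0.17 under E1A scaling, 0.063 under normexp and -0.31 to 0.12 without single arrays, Per1 0.37 under normexp, Nr1d1 0.23 with the slide block, and Per3 -0.082 with the mean of its probes and -0.13 to 0.34 without single arrays. In TBI vs. Naive, E1A scaling moved the median of all probes from 0.04 to 0.39 and normexp to 0.31. E1A scaling gave Arntl 0.083, Per1 0.073, Per3 0.25, Cry2 0.22, Dbp 0.0013, Nr1d1 0.19 and Nr1d2 0.28. Normexp gave Per1 0.44, Per3 0.20, Cry2 0.14, Nr1d1 0.026 and Nr1d2 0.43, and the slide block Cry2 0.046, Nr1d1 0.40 and Nr1d2 0.063. Cry1 was -0.043 under quantile normalization, -0.025 under the all-probe 75th percentile, -0.13 under the GC correction and -0.0086 in the authors' table. Without single arrays Cry1 was -0.14 to 0.18, Per3 -0.32 to 0.14, Cry2 -0.44 to 0.030, Nr1d1 -0.42 to 0.24 and Nr1d2 -0.46 to 0.20. In Sham vs. Naive, leaving out single arrays gave Arntl -0.43 to 0.046 and Dbp -0.039 to 0.39.

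Against TBI, quantile normalization moved the median of all probes to between -0.01 and 0.00. It gave Per1 -0.33 in TBI+PMI, Arntl -0.14, Per3 -0.15 and Cry1 -0.33 in TBI+JM6, and Arntl -0.14, Per1 -0.038, Per2 -0.33, Cry1 -0.33 and Nr1d2 -0.041 in TBI+E33 rats. The authors' table gave Per1 -0.41, then Arntl -0.13, Per3 -0.14 and Cry1 -0.32, then Arntl -0.13, Per1 -0.060, Per2 -0.32, Cry1 -0.31 and Nr1d2 -0.028 in the same order of groups. The 75th percentile over all probes gave Arntl -0.10, Per3 -0.0053 and Cry1 -0.25 in TBI+JM6 and Arntl -0.10, Per2 -0.050 and Cry1 -0.23 in TBI+E33 rats. The GC correction gave Nr1d1 -0.17 in TBI+PMI, Arntl -0.57, Per3 -0.51, Cry1 -0.56 and Nr1d1 -0.27 in TBI+JM6, and Arntl -0.66, Per2 -0.48, Per3 -0.17, Cry1 -0.66 and Nr1d1 -0.36 in TBI+E33 rats, and it called Dbp lower in all 3 (-1.54, -1.66 and -1.48). Normexp gave Per1 -0.13 in TBI+PMI rats. Dbp was 0.038 in TBI+JM6 vs. TBI without both arrays and -0.62 to 0.038 without single arrays, and in TBI+E33 vs. TBI 0.22 with the mean of its probes and -0.26 to 0.087 without single arrays. Of 1842 values recomputed, 1315 kept their direction and their side of the threshold or their size.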
